A study of Mus musculus with 2 samples.

Results

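The subject is 40 mouse genes of the lysosome, the acidic compartment in which cells digest proteins, lipids and sugars, out of 32285 genes in the deposited matrices. The members were given as a fixed list of symbols, chosen with earlier results of these data known, and all 40 were found. They comprise 10 proteases, 7 hydrolases and activators of hydrolases, 8 genes of the lysosomal membrane and of lipid export, 2 regulators, and 13 genes of the vacuolar proton pump. Single-nucleus RNA sequencing was done on hippocampus of mice aged 8 months. Both groups bore the 5XFAD transgenes, whose Thy1 promoter makes neurons produce mutant human APP and presenilin, with amyloid plaques as the outcome. The first library came from mice with the genotype 5XFAD, and the other from 5XFAD x MR1 KO, in which the antigen-presenting molecule MR1 is knocked out. Each library pooled 1 female and 1 male mouse, so a group is 1 library. No mice without 5XFAD are analysed here.

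Lysosomal enzymes work at low pH. The pump that makes this pH has a membrane sector, V0, which carries protons across, and a peripheral sector, V1, which splits ATP. Cathepsins and the asparaginyl protease legumain cut proteins inside the lysosome, and glycosidases, lipases and saposins take apart glycans and lipids. The transcription factor TFEB binds an E-box element in many of these genes and raises the set together. In brain, microglia are rich in cathepsins, while neurons also use the pump to load synaptic vesicles.

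The element that TFEB binds was looked for in the promoters, since it is the feature by which many lysosomal genes can be recognised as one set. In the RefSeq promoter table (build GRCm38.p6, 250 bases before to 50 after each start), 34 of the 40 genes had a promoter. Ctsb, Ctsh, Npc1, Atp6v1b2, Atp6v1c1 and Atp6v1h had none in the table. The palindrome TCACGTGA, which reads the same on both strands and contains the shorter CACGTG, was present in promoters of 5 of the 34 genes, against 1.12% of all 27025 genes in the table. The shorter CACGTG was present for 12 of 34, against 8.09% of all genes. The runs below are 30 bases each, 5′ to 3′ on the gene's strand, with the palindrome in capitals.
Ctsd, chr7:142387908-142387937, minus strand: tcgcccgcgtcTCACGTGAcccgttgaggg
Ctsa, chr2:164833757-164833786, plus strand: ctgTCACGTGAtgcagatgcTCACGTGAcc
Mcoln1, chr8:3500462-3500491, plus strand: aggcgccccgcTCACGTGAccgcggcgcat
Atp6v0d1, chr8:105566050-105566079, minus strand: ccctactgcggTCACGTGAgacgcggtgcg
Atp6v1a, chr16:44139373-44139402, minus strand: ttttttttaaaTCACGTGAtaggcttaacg
The palindrome began 99 bases before the RefSeq start of Ctsd, 46 before that of Mcoln1, 4 before that of Atp6v0d1 and 132 before that of Atp6v1a. Ctsa held it 2 times, beginning 13 bases before and 4 bases after its RefSeq start. In GENCODE M21 the Ctsd and Mcoln1 palindromes lay in an untranslated exon of 1 transcript each. Those of Ctsa lay in exons of 2 and 3 of 5 transcripts. That of Atp6v1a was intronic in 2 transcripts, and that of Atp6v0d1 overlapped none. A match describes the sequence and is not a measured binding site.

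The 5XFAD library held 25238 barcodes with 106861726 UMIs (unique molecular identifiers, which count RNA molecules), against 26212 barcodes and 85678909 UMIs in the library labelled MR1 knockout. Medians were 3135 and 2458 UMIs per barcode, and 182 barcode sequences occurred in both. Mr1 itself goes against the second label. Its UMIs numbered 33 (5XFAD) and 67 (knockout label), a CPM ratio of 2.04 (1.33 to 3.20), so every direction below is given for the library labelled MR1 knockout. These 3′ counts cannot check an allele that still makes RNA. A limit of 5% mitochondrial UMIs alone removed 35.8% of the 5XFAD barcodes and 8.92% of the others. After all filters 12034 and 17123 nuclei were analysed. Cells were classed by clustering without the 40 genes, each class name meaning only that the cluster was like that type in its markers, and 9 classes had at least 200 nuclei in each library. Some populations were almost confined to 1 library, such as striatal medium spiny neurons, with 1147 nuclei against 5. Values over all nuclei therefore mix classes in different shares. Nuclei were shallower in the library labelled MR1 knockout in all 9 classes, with 0.567 (dentate granule neurons) to 0.861 (astrocytes) times as many UMIs per nucleus. With 1 library per group no test was possible. Intervals are 95% and cover counting error only. CPM is a gene's UMIs scaled to the same total in each class and library, and a ratio is CPM in the library labelled MR1 knockout over CPM in the 5XFAD library. A gene counted as measured in a class with at least 50 UMIs over both libraries, and as past the fold where its CPM was at least 25% higher or at least 20% lower. In pooled nuclei, fewer cells of a type and less RNA per cell cannot be told apart.

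Microglia, the resident macrophages of the brain, held the highest CPM of 33 of the 40 genes in both libraries. The exceptions with 1 highest class in both libraries were Tpp1 and Tmem106b, highest in astrocytes, and Atp6v1h, highest in subicular or cortical excitatory neurons. Gaa, Npc1, Atp6v0a1 and Atp6ap1 were highest in different classes in the 2 libraries. The share of all genes with their highest CPM in microglia was not counted, so the 33 cannot be called particular to this set. CPM is a share of each nucleus' RNA, and microglial nuclei carried few UMIs, 1410 and 1041 on average against 7272 and 4973 in CA2/CA3 neurons. UMIs per nucleus were therefore also compared. In droplet data free RNA adds UMIs of a gene to all nuclei at a like low number, so the class with the fewest UMIs per nucleus served as the background, and values near it were not read as expression. Ratios of CPM between the libraries are given also for genes near this background, with their place above it.

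Among the proteases, Ctsd, the aspartic protease cathepsin D (ENSMUSG00000007891, chr7:142375911-142388038 in GRCm38), had 1487 CPM (1359 to 1623) in 5XFAD microglia and 1999 CPM (1901 to 2101) in microglia of the library labelled MR1 knockout. This was 2.10 and 2.08 UMIs per nucleus, 4.96 and 6.31 times the lowest class. In the other 8 classes Ctsd ranged from 0.422 to 0.513 UMIs per nucleus (5XFAD) and from 0.330 to 0.502 (knockout label), close to the lowest class, so its UMIs there could not be told from free RNA. The microglial level stood well above that plateau in both libraries.

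Ctss, cathepsin S, a cysteine protease of macrophages and other antigen-presenting cells, had 1.42 and 1.35 UMIs per microglial nucleus, 7.27 and 9.60 times the lowest class. UMIs of Ctss were found in 63.4% and 60.5% of microglial nuclei but also in 17.2% and 14.6% of dentate granule neurons, whose median depth was 3427 and 1936 UMIs against 1278 and 895 in microglia. The share in neurons, which should lack it, is read as background. Ctsh, cathepsin H, was the protease most concentrated in microglia, at 220 and 244 CPM and 13.6 and 14.7 times the lowest class. Ctsz (605 and 805 CPM), Lgmn, which encodes legumain (435 and 510 CPM), and Ctsa, the carboxypeptidase that protects other lysosomal hydrolases (167 and 239 CPM), were 4.12 to 6.82 times the lowest class in microglia of both libraries.

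Ctsb and Ctsl, the broadly expressed cathepsins B and L, were less selective. Ctsb had 629 and 618 CPM in microglia, 2.87 and 3.14 times the lowest class per nucleus. Ctsl had 623 and 716 CPM, 3.11 and 2.94 times, and in inhibitory neurons it was 1.81 and 2.24 times the lowest class. Ctsf, cathepsin F, had few UMIs, with 50.6 (29.5 to 81.1) and 48.8 (34.6 to 67.0) CPM in microglia. Its most UMIs per nucleus were in inhibitory neurons in the 5XFAD library and in subicular or cortical neurons in the other. Tpp1, a tripeptidyl peptidase whose loss causes a childhood lysosomal storage disease of neurons, had 65.4 and 74.7 CPM in astrocytes.

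By UMIs per nucleus, from which depth was not taken out, the hydrolases were divided between microglia and neurons. Gusb, β-glucuronidase, had 74.5 and 96.4 CPM in microglia (9.40 and 5.48 times the lowest class per nucleus), and Hexa, a subunit of β-hexosaminidase, had 268 and 274 CPM (4.83 and 4.46 times). Glb1, β-galactosidase, also had its highest CPM in microglia, at 38.7 and 45.0, but its most UMIs per nucleus were in neurons. In inhibitory neurons it was 7.01 and 10.4 times the lowest class per nucleus, oligodendrocytes. Mean depth was 5093 and 4029 UMIs in inhibitory neurons against 1485 and 1050 in oligodendrocytes, and the part of depth was not tested. Ppt1, the thioesterase that removes palmitate from proteins (179 and 172 CPM), Pld3, a nuclease of the lysosome (128 and 126 CPM), and Psap, the precursor of the saposins (447 and 530 CPM), followed the same pattern, with neurons highest per nucleus. Gaa, which digests glycogen, had 86.4 and 68.1 CPM in microglia and was highest per nucleus in inhibitory neurons.

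Of the membrane genes, Cd68, a macrophage glycoprotein of the late endosome (chr11:69664213-69666153), was nearly restricted to microglia, with 268 (216 to 330) and 292 (255 to 332) CPM and 8.95 and 10.2 times the lowest class. Npc2, which hands cholesterol to the exporter Npc1, had 241 and 279 CPM in microglia. Npc1 was highest in oligodendrocyte precursors in the 5XFAD library (87.04 CPM) and in oligodendrocytes in the other (95.1 CPM). Lamp2 (384 and 343 CPM), Lamp1 (289 and 318 CPM) and Scarb2, the receptor that carries glucocerebrosidase (128 and 131 CPM), were highest in microglia by CPM but 1.36 to 2.49 times the lowest class per nucleus. Mcoln1, the lysosomal calcium channel, had only 14 and 21 UMIs in microglia. Tmem106b, a lysosomal membrane protein linked to dementia risk, had 87.8 and 110 CPM in astrocytes.

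Grn, progranulin, which is cut into granulins in the lysosome, had 176 (134 to 227) and 262 (227 to 301) CPM in microglia, 4.99 and 5.36 times the lowest class. Tfeb was sparse, with 159 and 191 UMIs over all nuclei. It had 13 and 21 UMIs in microglia, and 32.6 and 26.9 CPM in oligodendrocytes against 0.690 and 0.970 CPM in dentate granule neurons, from 4 and 9 UMIs. Counted by role, 13 of the 27 lysosomal genes had their most UMIs per nucleus in microglia in both libraries and 9 in a class of neurons. The matching shares of all genes were not counted, and depth was not taken out of UMIs per nucleus.

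**Figure D1:**
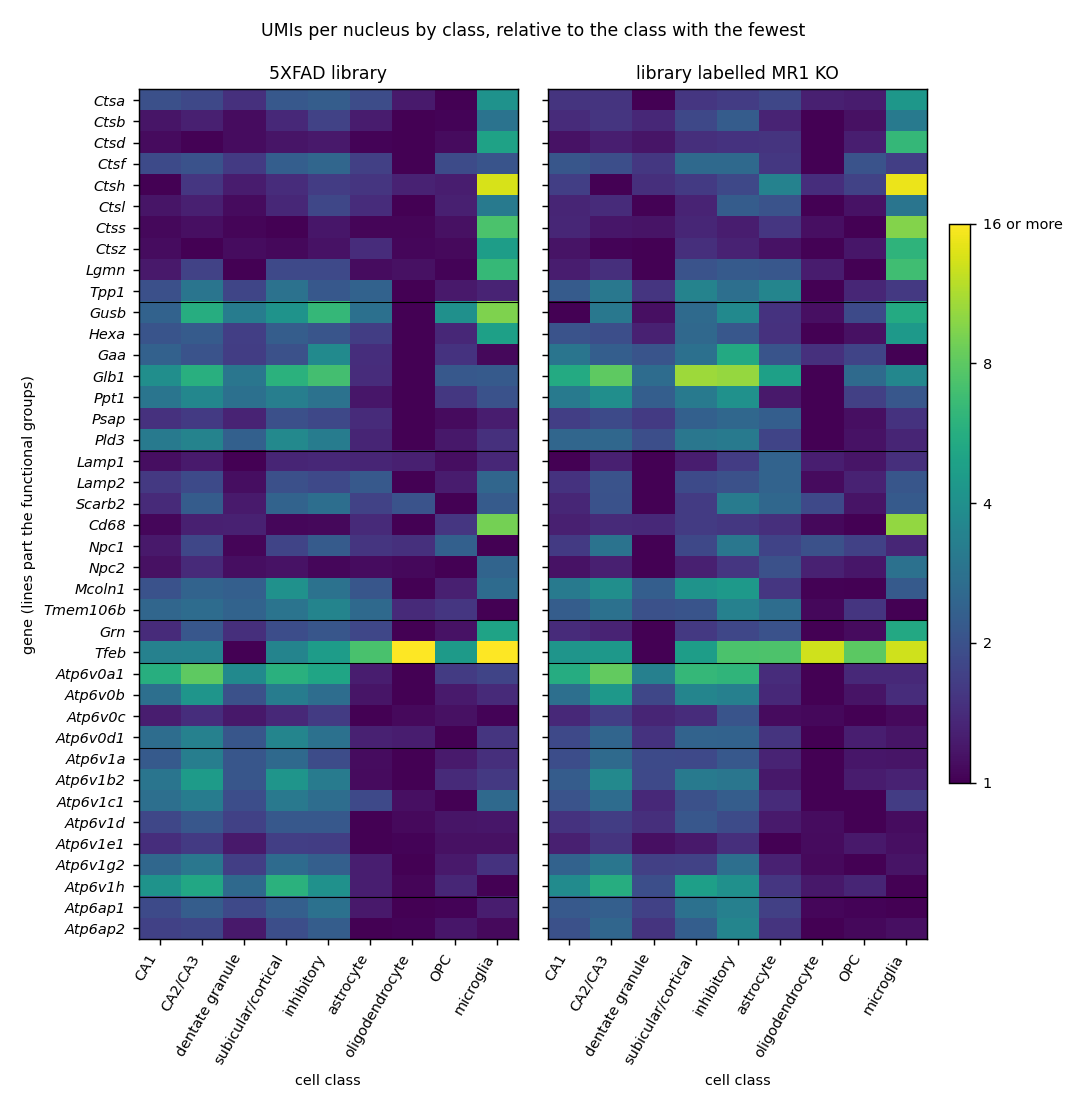
UMIs per nucleus of the 40 genes (rows) in 9 classes (columns) for each library, as times the class with the fewest on a log colour scale. Ctsh, Ctss, Cd68, Lgmn and Gusb are bright in microglia, Atp6v0a1 and Atp6v1h in the neuronal classes, and Tfeb in microglia and oligodendrocytes.

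By UMIs per nucleus, the proton pump was distributed otherwise. None of its 13 genes had the most UMIs per nucleus in microglia in either library, and all 13 were highest in a class of neurons in both, although 10 had their highest CPM in microglia in both. Atp6v0a1, a membrane subunit of V0 (chr11:101009452-101063719), had 2.10 and 1.51 UMIs per nucleus in CA2/CA3 neurons, 8.06 and 8.19 times the lowest class, against 0.462 and 0.254 in microglia. Atp6v1h, a regulatory subunit of V1, had 0.768 and 0.475 UMIs per nucleus in subicular or cortical neurons, 5.90 and 4.79 times the lowest class, and microglia had the fewest. Atp6v1b2, the brain form of the ATP-binding B subunit, was 4.57 and 3.68 times the lowest class in CA2/CA3 neurons, and Atp6v0b, part of the proton-carrying ring, 4.24 and 4.39 times. The excess per nucleus of these 4 genes in neurons was present in both libraries. Nuclei of CA2/CA3 neurons held 7272 and 4973 UMIs on average, against 1410 and 1041 in microglia. Depth was not taken out of UMIs per nucleus, and the share of all genes highest in neurons was not counted. Atp6v1b2 and Atp6v0b had their highest CPM in microglia in both libraries, and the part of depth in their values was not tested.

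Other pump genes varied less between classes. Atp6v0c, the main subunit of the proton-carrying ring, had 1552 and 1810 CPM in microglia and 1535 and 1776 CPM in oligodendrocytes, and its UMIs per nucleus reached at most 1.61 and 2.06 times the lowest class, both in inhibitory neurons. Levels this close to the lowest class could not be told from free RNA in most classes. Microglial CPM in the 5XFAD library and the other were 781 and 856 for Atp6v0b and 194 and 198 for Atp6v1b2. They were 226 and 244 for Atp6v1a, the catalytic subunit, 232 and 284 for the stalk subunit Atp6v1e1, and 161 and 224 for the rotor subunit Atp6v1d. They were 179 and 167 for Atp6v1c1, 161 and 139 for Atp6v1g2, a form of the G subunit found in neurons, and 128 and 130 for Atp6v0d1. The accessory subunits Atp6ap1 and Atp6ap2, which help assemble the pump, had 137 and 105 CPM and 259 and 230 CPM. Per nucleus, microglia lay within 1.5 times of the lowest class in both libraries for 9 of the 13 pump genes.

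Between the libraries, the comparison asks whether the lysosomal set differed in plaque-bearing hippocampus with the MR1 knockout label. Over all nuclei the CPM of 39 of the 40 genes was higher in the library labelled MR1 knockout, with a median log2 ratio of 0.27, against 0.12 for 18615 genes with at least 50 UMIs. The share of all genes above 1 was not counted, so the 39 cannot be called particular to this set. Past the fold were 13 genes, all higher. Of all genes 23.9% were past it upward and 7.53% downward. TMM scaling, which centres most genes on no difference, shifted log2 ratios over all nuclei by -0.13 and left 6 genes past the fold, and 1 was left when no limit was set on mitochondrial UMIs. Wherever counts are given for other scaling, filters, sexes or thinning, the share of all genes past the fold was not counted.

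Of the 10 proteases 6 were past the fold. Ctsd had 5954 UMIs (106 CPM) and 8350 UMIs (149 CPM), a ratio of 1.41 (1.36 to 1.46). Ctss had 48.9 and 68.4 CPM, a ratio of 1.40 (1.33 to 1.47), and Ctsl had 80.1 and 112 CPM, a ratio of 1.40 (1.34 to 1.45). Nuclei were assigned to the female or the male mouse by sex-linked RNA, and all 3 ratios were above 1 in both (Ctsd 1.34 and 1.31, Ctss 1.30 and 1.40, Ctsl 1.45 and 1.32). Both mice of a library shared its capture, so the sexes are not separate replicates. Striatal medium spiny neurons made up 699 of the 3448 male nuclei of the 5XFAD library and 0 in the other. The male ratios over all nuclei thus compare different class shares. Ctsh (1.43, 1.27 to 1.62), Lgmn (1.30, 1.22 to 1.39) and Ctsf (1.29, 1.18 to 1.42) were also past the fold. Ctsa, Ctsz and Ctsb stood at 1.21, 1.21 and 1.19, and Tpp1 at 1.07.

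No hydrolase was past the fold. Psap was nearest, at 1.247 (1.21 to 1.28). Ppt1 had 73.9 CPM in each library, a ratio of 0.999, and was the member not above 1. The other 5 lay between Pld3 at 1.03 and Gusb at 1.23. Of the 8 membrane genes Cd68 (1.33, 1.20 to 1.47) and Tmem106b (1.32, 1.251 to 1.40) were past it, and the others ran from Scarb2 at 1.07 to Lamp2 at 1.21. Grn had 17.6 and 24.2 CPM, a ratio of 1.37 (1.26 to 1.49), and Tfeb 1.21 (0.973 to 1.5). In the pump, Atp6v1a (1.37, 1.33 to 1.42), Atp6v1d (1.36, 1.31 to 1.42), Atp6v0c (1.34, 1.33 to 1.36) and Atp6v1c1 (1.26, 1.19 to 1.32) were past it. Atp6v1h at 1.01 and Atp6v0a1 at 1.05, the most neuronal pump genes per nucleus, were the nearest to 1 in the pump. The 5 genes with the TCACGTGA palindrome had ratios of 1.41 (Ctsd), 1.37 (Atp6v1a), 1.21 (Ctsa), 1.12 (Mcoln1) and 1.07 (Atp6v0d1).

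**Figure D2:**
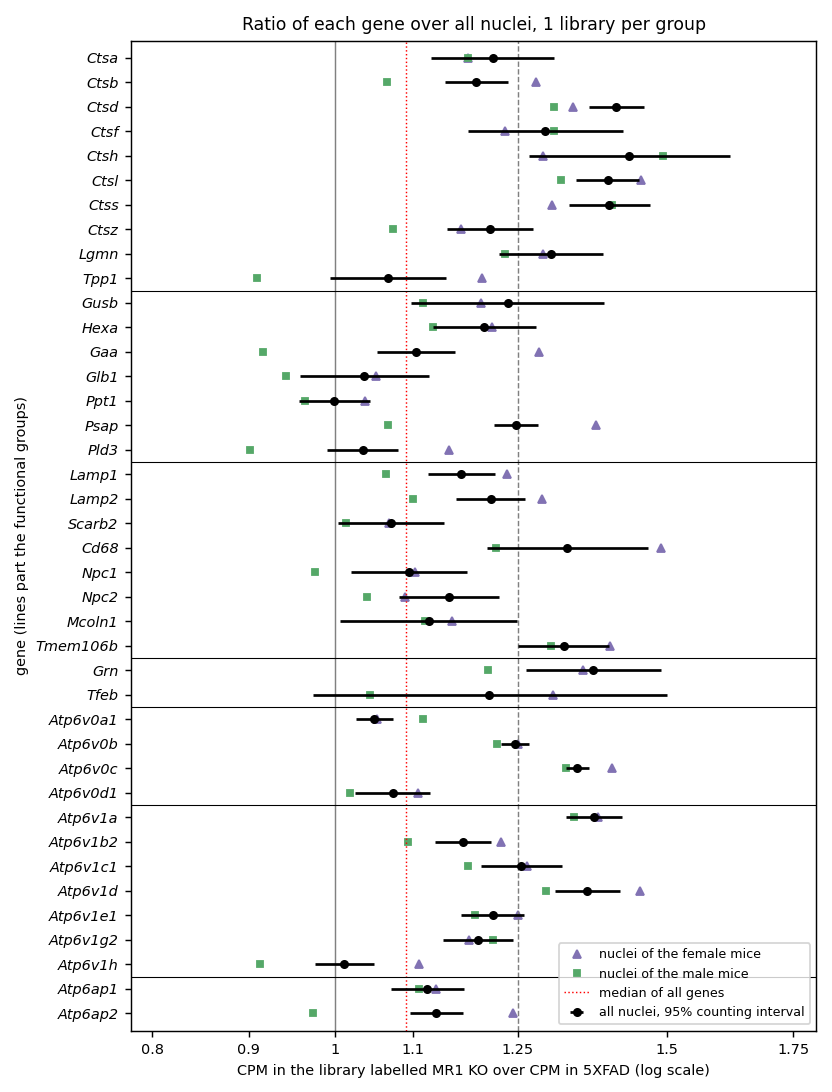
Ratio of CPM over all nuclei for each gene on a log axis (black points with 95% counting intervals, 1 library per group), with the ratio in nuclei of the female mice (triangles) and of the male mice (squares), the fold of 25% (dashed) and the median of all genes (dotted). Of the 40 genes, 39 lie above 1, and 32 lie above 1 in both sexes. Shares of all genes above 1 were not counted.

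The excess was in CPM and was not seen in raw UMIs per nucleus. Counted as UMIs per nucleus, 1 of the 40 genes was higher over all nuclei in the library labelled MR1 knockout, while 39 were higher in CPM. Ctsd had 0.495 and 0.488 UMIs per nucleus, and the mean depth of a nucleus was 4682 and 3273 UMIs. That is a depth ratio of 0.699, which by itself puts CPM ratios of this size below 1 per nucleus. The count therefore cannot decide whether molecules per nucleus differed, and the share of all genes was not counted. Summed microglial markers (22 genes) were also higher over all nuclei, at 672 and 847 CPM, a ratio of 1.26 (1.24 to 1.28), and all 22 were detected in both libraries. The part of free RNA, depth and class shares in the 13 calls was not tested over all nuclei, and the classes give the values within a cell type.

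Dentate granule neurons showed the highest count, 22 of 39 genes higher and 0 lower, where 31.1% of all genes were higher and 10.5% lower. Atp6v0c had 654 and 1060 CPM, a ratio of 1.62 (1.56 to 1.68), Atp6v1d 83.7 and 140 CPM, a ratio of 1.67 (1.51 to 1.86), and Psap 171 and 267 CPM, a ratio of 1.56 (1.45 to 1.68). All 3 were higher in both sexes. This class was made of different clusters in the libraries, however. Cluster 10 held 1278 of the 5XFAD nuclei and 1075 of the others, and cluster 11 held 204 and 3110. Within cluster 10 the count was 10 higher and 2 lower (19.3% and 8.54% of all genes). Within cluster 11 it was 6 higher and 7 lower (32.8% and 17.8% of all genes), so higher genes no longer outnumbered lower ones there. Atp6v1d was higher in both clusters, at 1.45 (1.26 to 1.67) and 1.35 (1.01 to 1.84). Atp6v0c was at 1.31 (1.24 to 1.38) in cluster 10 and 1.07 (0.974 to 1.18) in cluster 11, and Psap at 1.20 (1.08 to 1.33) and 1.29 (1.06 to 1.60), so neither gene was past the fold in both clusters. Ctsd was at 1.16 (1.02 to 1.31) and 0.943 (0.760 to 1.18). Summed microglial markers had a ratio of 1.14 (1.103 to 1.19) in the class, 1.01 (0.961 to 1.06) in cluster 10 and 0.860 (0.783 to 0.947) in cluster 11. Per nucleus, 16 of the 27 lysosomal and 2 of the 13 pump genes lay within 1.5 times of the lowest class in both libraries. Atp6v0c was at 1.20 and 1.34 times that class, Psap at 1.32 and 1.61 and Atp6v1d at 1.71 and 1.46, and the part of free RNA in their ratios was not tested.

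Subicular or cortical excitatory neurons had 21 of 39 genes higher and 0 lower, with 30.2% and 12.8% of all genes past the fold in each direction. Here too the clusters differed in size between libraries, and 666 of the 1376 nuclei of the 5XFAD library came from a cluster that held 22 of the 396 in the other. Atp6v1d had 62.3 and 109 CPM, a ratio of 1.76 (1.48 to 2.08), Ctsd 74.2 and 117 CPM, a ratio of 1.57 (1.33 to 1.85), and Atp6v0b 379 and 537 CPM, a ratio of 1.42 (1.32 to 1.53). Of the proteases 9 of 10 were past the fold, and of the V1 genes 1 of 7. Under TMM scaling 10 genes were higher and 2 lower. In nuclei of the female mice 8 of 36 genes were higher and 1 lower, and in those of the male mice 21 of 35 and 1. The lysosomal genes had a median log2 ratio of 0.088 in the female mice against 0.48 in the whole class. With nuclei thinned to 750 UMIs 13 of 23 were higher. Ctsd lay at 1.16 and 1.46 times the lowest class per nucleus, near background, and Atp6v0b at 3.19 and 3.54 times.

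In the other neurons fewer genes stood out. CA1 pyramidal neurons had 11 of 39 higher and 0 lower (20.7% and 6.19% of all genes). Ctsl had 63.5 and 96.1 CPM there, a ratio of 1.51 (1.33 to 1.72), Atp6v0c 514 and 687 CPM, a ratio of 1.34 (1.28 to 1.40), and Atp6v1d 66.5 and 90.9 CPM, a ratio of 1.37 (1.20 to 1.56). CA2/CA3 pyramidal neurons had 11 of 38 higher and 0 lower (20.7% and 5.73%). Their leading genes were Atp6v0c at 1.40 (1.33 to 1.48), Tmem106b at 1.59 (1.29 to 1.96) and Ctsl at 1.45 (1.24 to 1.69), each higher in both sexes. Inhibitory neurons had 7 of 39 higher and 0 lower, near the 20.1% and 6.73% of all genes. Atp6v0c stood at 1.34 (1.28 to 1.39), Ctsl at 1.40 (1.26 to 1.57) and Atp6v1a at 1.42 (1.253 to 1.60). For Atp6v0a1, whose level per nucleus is well above background in these neurons, the ratios were 1.03, 1.05 and 1.08, short of the fold. Ctsl in CA1 lay at 1.17 and 1.33 times the lowest class per nucleus and Atp6v0c at 1.252 and 1.37 times, and in CA2/CA3 they lay at 1.28 and 1.40 and at 1.44 and 1.67 times. These CPM differences are of genes near background, and the part of free RNA in them was not tested. In inhibitory neurons Ctsl lay at 1.81 and 2.24 times the lowest class. Under TMM scaling the higher genes numbered 6 in CA1, 7 in CA2/CA3 and 4 in inhibitory neurons.

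Astrocytes had 11 of 32 genes higher and 2 lower, against 20.2% and 19.6% of all genes. Lamp1, a main glycoprotein of the lysosomal membrane, had 102 UMIs (191 CPM) and 139 UMIs (305 CPM), a ratio of 1.60 (1.23 to 2.09). Ctsl was at 1.495 (1.15 to 1.96) and Psap at 1.38 (1.13 to 1.69). Ctsz (0.702, 0.462 to 1.05) and Npc1 (0.784, 0.435 to 1.39) were past the fold downward with intervals that contained 1. With 256 and 253 nuclei, 7 genes had an interval wholly above 1. The counts depended on which nuclei were kept, with 20 of 39 measured genes higher when no limit was set on mitochondrial UMIs, 6 of 13 after thinning to 750 UMIs, 2 of 12 in the female and 1 of 4 in the male mice, and 1 of 1 where mitochondrial UMIs were under 1%. Both lower genes were above 1 with no mitochondrial limit, Ctsz at 1.229 and Npc1 at 1.103, and Npc1 was also at 1.04 in the female mice and at 2.32 under 1%. Lamp1, Ctsl and Psap lay at 1.33, 1.43 and 1.40 times the lowest class per nucleus in the 5XFAD library and at 2.41, 2.04 and 2.29 times in the other.

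Oligodendrocytes, the myelinating cells, had 12 of 36 genes higher and 0 lower (23.8% and 12.4% of all genes), and 6 of the 12 were V1 genes. Atp6v1d had 139 and 223 CPM, a ratio of 1.61 (1.31 to 1.98), Atp6v1e1 199 and 274 CPM, a ratio of 1.37 (1.15 to 1.64), and Atp6v1a 148 and 208 CPM, a ratio of 1.40 (1.14 to 1.73). Atp6v1a was at 0.984 in the nuclei of the male mice and at 0.631 where mitochondrial UMIs were under 1%. Under TMM scaling 6 genes were higher and 1 lower. Their UMIs per nucleus lay near the lowest class in both libraries for all 13 pump genes, and the part of free RNA in these values was not tested. Oligodendrocyte precursors had 9 of 30 genes higher and 1 lower (23.6% and 13.5%). Atp6v0d1 had 29 and 68 UMIs, a ratio of 1.84 (1.18 to 2.95), Atp6v1e1 a ratio of 1.47 (1.11 to 1.96) and Ctsd 1.37 (1.08 to 1.748), and Npc1 was lower at 0.654 (0.419 to 1.02). Per nucleus, 12 of the 13 pump and 17 of the 27 lysosomal genes lay within 1.5 times of the lowest class in both libraries. Atp6v0d1 was at 1.00 and 1.26 times it and Ctsd at 1.08 and 1.26, and the part of free RNA was not tested here either.

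**Figure D3:**
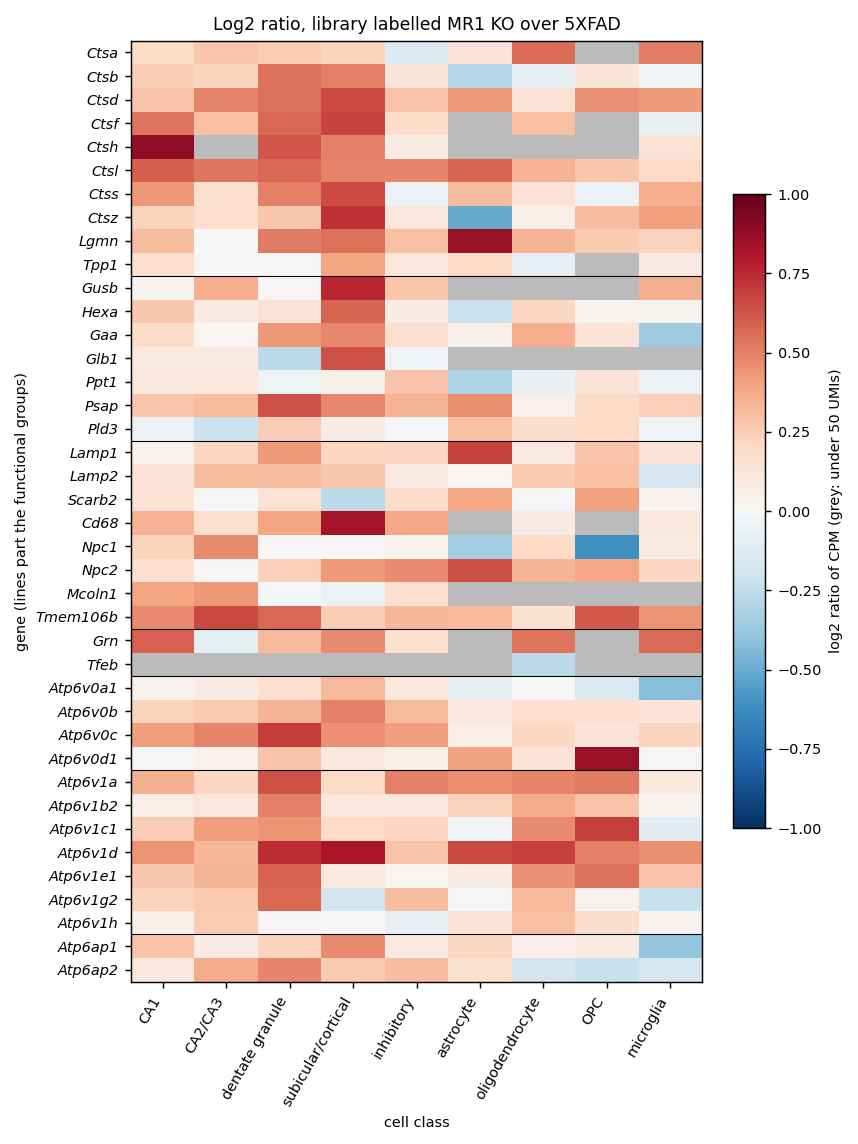
Log2 ratio of CPM (library labelled MR1 knockout over 5XFAD) of each gene (rows) in 9 classes (columns), with grey where a gene had under 50 UMIs. Atp6v1d, Ctsl and Tmem106b are red in all 9 columns, and the microglial column holds more blue cells among the pump genes than the dentate granule column.

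Across the classes, 30 genes were measured in all 9, and 13 of them had a ratio above 1 in every class, where 12.6% of all genes measured in the 9 classes did. None was below 1 in every class, where 1.61% of all genes were. The 13 were Ctsd, Ctsl, Lgmn, Psap, Lamp1, Npc2, Tmem106b, Atp6v0b, Atp6v0c, Atp6v1a, Atp6v1b2, Atp6v1d and Atp6v1e1. Atp6v1d was past the fold in 8 of 9 classes, with ratios from 1.22 in inhibitory neurons to 1.76 in subicular or cortical neurons. Ctsl and Tmem106b were past it in 7 classes each. The classes share 1 pair of libraries and their free RNA, so they are not independent of each other, and the median log2 ratio of all genes was itself above 0 in 8 of the 9 classes.

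**Figure D4:**
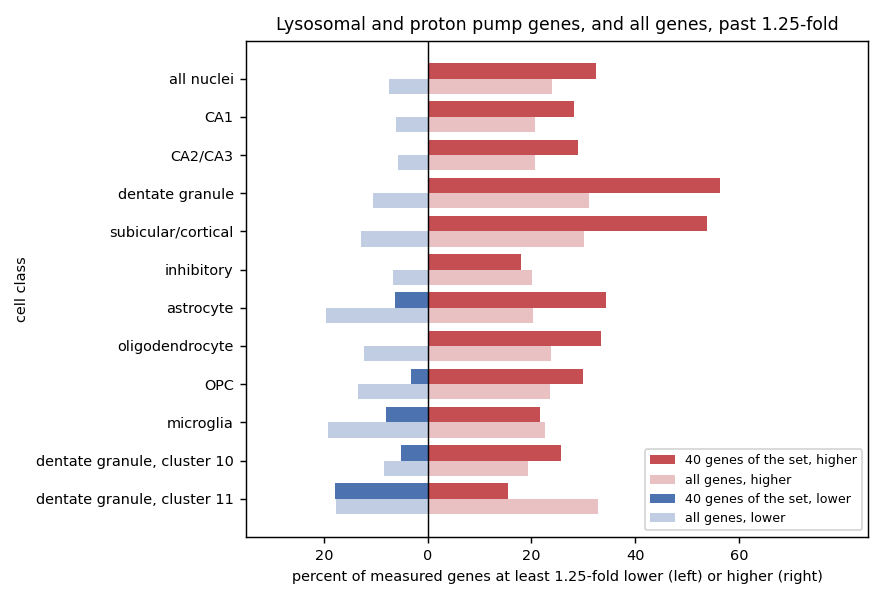
Percent of measured genes at least 25% higher (right) or 20% lower (left) in the library labelled MR1 knockout, for the 40 genes of the set (dark bars) and for all genes (pale bars), by class. The dark bar to the right is longest in dentate granule and subicular or cortical neurons and is shorter than the pale bar in inhibitory neurons, microglia and dentate granule cluster 11.

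In microglia, where most of the proteases stand above background, 8 of 37 genes were higher and 3 lower, against 22.7% and 19.3% of all genes. Of the proteases, Ctsf and Tpp1 had their most UMIs per nucleus in other classes in both libraries. The median log2 ratio was 0.10 for the 40 genes and 0.00 for all genes. Ctsd had 499 UMIs (1487 CPM) and 1555 UMIs (1999 CPM), a ratio of 1.34 (1.21 to 1.49). By sex the ratio was 1.41 (female) and 0.914 (male), the male value resting on 23 and 44 microglial nuclei. Ctss had 1004 and 1294 CPM, a ratio of 1.29 (1.14 to 1.46), with 1.42 and 1.23 in the sexes, but 0.871 where mitochondrial UMIs were under 1%. Ctsz had 605 and 805 CPM, a ratio of 1.33 (1.13 to 1.57), with 1.32 and 1.29. These 3 abundant proteases were higher by CPM, and their UMIs per nucleus were 0.993, 0.952 and 0.982 times those of the 5XFAD library.

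Also past the fold were Grn at 1.49 (1.11 to 2.03), Ctsa at 1.43 (1.06 to 1.97), Atp6v1d at 1.39 (1.02 to 1.92), and, with intervals that contained 1, Tmem106b at 1.40 and Gusb at 1.29. Atp6v0a1 was lower, with 110 UMIs (328 CPM) and 190 UMIs (244 CPM), a ratio of 0.745 (0.586 to 0.951), but stood at 1.30 in the male mice. Atp6ap1 (0.769, 0.530 to 1.13) and Gaa (0.789, 0.492 to 1.29) were lower with intervals that contained 1. Per nucleus, Atp6ap1 lay at 1.24 and Gaa at 1.07 times the lowest class in 5XFAD microglia. In the library labelled MR1 knockout, microglia were themselves the lowest class for both genes. Atp6v0a1 lay at 1.77 (5XFAD) and 1.38 (knockout label) times the lowest class. The part of free RNA in these lower ratios was not tested. The 10 proteases had a median log2 ratio of 0.21 and a summed ratio of 1.24 (1.17 to 1.31), the V1 genes a median of 0.03 and the V0 genes 0.07. Cd68 was at 1.09 (0.849 to 1.41) and Ctsb at 0.984 (0.835 to 1.16), and the cathepsins thus differed among themselves.

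Markers of other classes in the microglial nuclei differed between the libraries. Those of CA1 neurons (14 of 14 detected in both libraries) had 1224.5 and 766 CPM, those of astrocytes (17 of 18 in both) 2056 and 1843 CPM, those of striatal medium spiny neurons (16 and 13 of 16) 909 and 253 CPM, and those of choroid plexus epithelium (7 and 10 of 12) 748 and 3277 CPM. Microglial markers (22 of 22) were at 14003 and 14579 CPM. The part of this RNA in the ratios was not tested. A further cluster led by microglial genes, with 213 and 402 nuclei, held RNA of both sexes in 30.1% of its nuclei and was left out as mixed. When it was counted as microglia, 25 genes were higher and 0 lower. Nuclei of that cluster were deeper, with medians of 5571 and 3280 UMIs against 1278 and 895 in microglia. The share of all genes past the fold was not counted with it.

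Microglia near plaques are known to take on a disease-associated state with high lysosomal genes, so the microglial nuclei were divided by UMIs of 8 genes of that state that are not among the 40 (Axl, Csf1, Cst7, Lpl, Spp1, Itgax, Gpnmb and Igf1). Each nucleus was thinned to 750 UMIs, which left out 22 of 238 and 193 of 747 shallower nuclei. At least 1 such UMI occurred in 82 of 216 nuclei of the 5XFAD library (38.0%, exact binomial interval 31.5 to 44.8) and in 226 of 554 of the other (40.8%, 36.7 to 45.0). These intervals cover the sampling of nuclei within each library and not differences between mice or captures. With 1 library per group they cannot decide whether the share differs with the MR1 knockout label. The library with that label also lost the larger part of its microglia to the depth limit. The disease-associated state is a range and not a cell type, and 46 and 145 of the nuclei with such UMIs had exactly 1.

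The proteases Ctsd and Ctsz, and the membrane glycoprotein Cd68, were higher in the nuclei with disease-state UMIs in both libraries. Ctsd had 1174 CPM without and 2114 CPM with them in the 5XFAD library, a ratio of 1.8 (1.39 to 2.33), and the knockout-labelled library gave 1622 and 2985 CPM, a ratio of 1.84 (1.61 to 2.10). Ctsz had ratios of 1.73 (1.15 to 2.62) and 1.93 (1.55 to 2.41), and Cd68 2.60 (1.36 to 5.08) and 1.79 (1.26 to 2.56). Ctss, though abundant, was nearer 1, at 1.00 (0.713 to 1.39) and 1.20 (1.01 to 1.43), as was Lgmn, at 0.8004 (0.470 to 1.33) and 1.15 (0.871 to 1.51). Summed over the 27 lysosomal genes the ratio was 1.35 (1.21 to 1.51) and 1.36 (1.28 to 1.45). Over the 13 pump genes it was 1.12 (0.967 to 1.29) and 0.984 (0.899 to 1.08). In microglia, 9 of these 13 lay within 1.5 times of the lowest class per nucleus in both libraries, against 6 of the 27 lysosomal genes. The part of free RNA in the 2 sums was not tested. Homeostatic microglial genes, those of resting microglia, were lower at 0.832 (0.685 to 1.01) and 0.881 (0.786 to 0.985).

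Of 26 genes with at least 20 UMIs in each library, 13 were higher with disease-state UMIs in both libraries, 4 lower in both and 9 opposite, where 27.3% of all genes at that depth were higher in both. The difference between the libraries was present on both sides of this division for Ctsd and for the lysosomal sum, but not for the pump sum. For Ctsd it was 1.41 (1.16 to 1.73) in nuclei with disease-state UMIs and 1.38 (1.12 to 1.71) in those without. For the 27 lysosomal genes together it was 1.246 (1.14 to 1.37) and 1.23 (1.13 to 1.34), and for the pump genes 0.934 (0.819 to 1.07) and 1.06 (0.953 to 1.19). Most pump genes lay near the lowest class in microglia, and the part of free RNA in their sum was not tested.

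**Figure D5:**
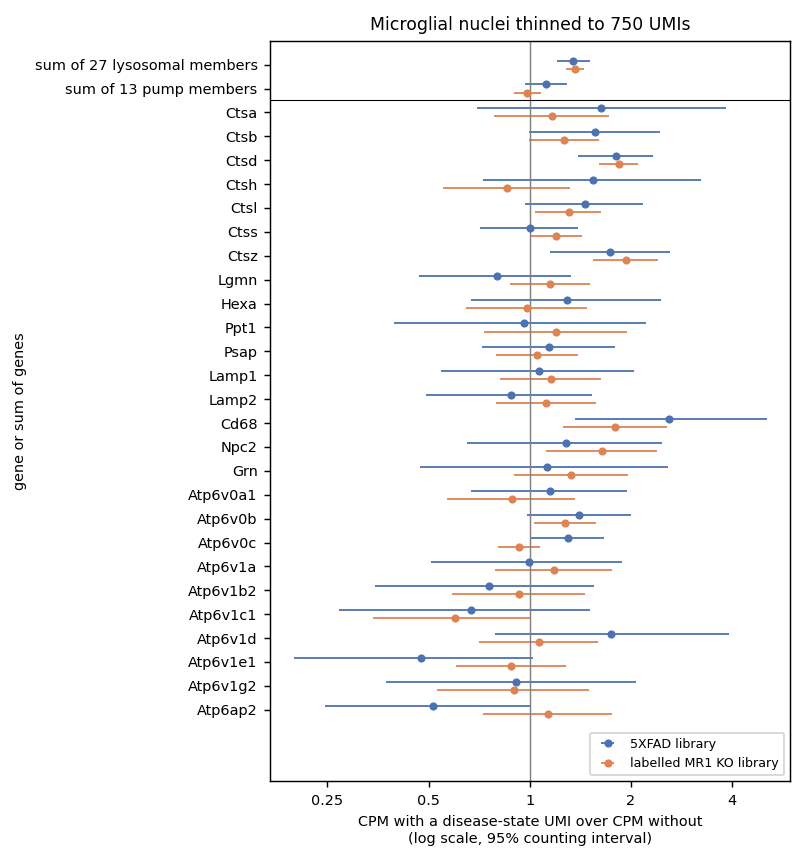
Ratio of CPM in microglial nuclei with a disease-state UMI to CPM in those without, on a log axis with 95% counting intervals, for the sums of the 27 lysosomal and 13 pump genes and for the 26 genes with at least 20 UMIs in each library. Ctsd, Ctsz and Cd68 lie above 1 with their whole intervals in both libraries, while the pump genes scatter around 1.

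Other genes of the pathway were taken from lists of pump, hydrolase, membrane, sorting, nutrient-sensing and cystatin genes that hold none of the 40. Over all nuclei 100 of 105 were measured, and 23 were higher and 0 lower by the fold, close to the 23.9% of all genes. Ctse, cathepsin E, an aspartic protease of endosomes, had the largest ratio, from 47 and 200 UMIs, at 4.28 (3.10 to 6.01). Neu1, the lysosomal neuraminidase that cathepsin A protects, was at 1.60 (1.48 to 1.74). Sorl1, a sorting receptor that carries APP away from endosomes, was at 0.860 (0.830 to 0.892) and Arsb, arylsulfatase B, at 0.930 (0.897 to 0.964), both short of the fold. In microglia 55 of the 105 were measured, with 18 higher and 3 lower, where 22.7% of all genes were higher and 19.3% lower. Ordered by the interval bound nearest 1, Ctse was first, from 23 and 111 UMIs, at 2.08 (1.32 to 3.42), and the V1 gene Atp6v1f next at 1.70 (1.30 to 2.25). Slc17a5, the lysosomal sialic acid exporter, had a ratio of 2.01 from 9 and 42 UMIs, with an interval that contained 1 (0.966 to 4.70). No gene of these lists had an interval wholly below 1 in microglia.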

How the data were processed

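The authors deposited 1 matrix of raw UMI counts per library (10x 3′ single-nucleus RNA), made with Cell Ranger 7.0.0 per the file headers. The submitters' processing notes also name mm10 and Seurat, with no role. The sources used here give neither the annotation release nor strand or intron settings. Gene coordinates are from GENCODE M21 (32158 of 32285 identifiers and 40 of 40 members matched).

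Barcodes with at least 500 genes and under 5% mitochondrial UMIs were kept. Nuclei were scored as doublets with Scrublet in scanpy 1.11.5. Those with the highest scores were removed up to a share fixed beforehand at 0.8% per 1000 barcodes of the library, which was 20.2% and 21.0% of nuclei. Clustering used 2500 variable genes without the members, pathway genes or sex-linked genes, 40 components, 20 neighbours and Leiden resolution 1.5. A cluster was named from at least 3 markers among its top 50 genes and more own than other markers among its top 10. Clusters with RNA of both sexes in at least 15% of nuclei were left out as mixed (263 and 472 nuclei). Unnamed clusters (3373 and 5352 nuclei) enter only the values over all nuclei. Class names were rebuilt here and may differ from the study's. Counts were summed per class and library. CPM has exact Poisson intervals and ratios have exact conditional binomial intervals, at 95%. No test was made, since cells are not replicates. TMM scaling used edgeR 4.0.16. The scripts were tested on simulated data.

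The members and lists were chosen with earlier results of these data known. Named in full were all members past the fold among the 3 largest each way per class by the interval bound nearest 1, each member in its highest class, and the 2 pathway genes largest each way. Alternatives covered scaling, the filters, thinning, sex, the fold and the minimum count.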

Additional observations from a re-analysis of the deposited data

How the results depend on the processing

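No paired analysis was possible because each group has 1 library. Alternatives were compared by value, with no test. The share of all genes past the fold was not counted under them, except in the single clusters of dentate granule neurons. The counts of genes past the fold and the median log2 ratios of the 27 lysosomal and 13 pump genes were recomputed under each alternative. So were the named ratios. Counts and medians that differed by over 1.5 times, by more than their spread or in direction follow, as log2 ratios for medians. Named ratios follow only where they lay on the other side of 1. Others left their intervals on the same side of 1 and are not all listed. Over all nuclei Ctsd was 1.41 (1.36 to 1.46), against 1.13 with no mitochondrial limit and 1.585 under 1% mitochondrial UMIs. Female nuclei gave 1.20 and male nuclei 2.18 for Ctsd in subicular or cortical neurons, against 1.57 (1.33 to 1.85). The cause was not tested, except that thinning, stricter filters and single sexes leave fewer UMIs. With 238 microglia and 256 astrocytes in the 5XFAD library, genes of few UMIs have wide intervals there. The single clusters of dentate granule neurons and the mixed cluster were chosen after seeing the data. Under TMM scaling, higher genes numbered 6 in all nuclei, 6 in CA1, 7 in CA2/CA3, 4 in inhibitory neurons, 6 in oligodendrocytes and 10 in subicular or cortical neurons. Lower genes numbered 1 in dentate granule neurons, 1 in oligodendrocytes and 2 in subicular or cortical neurons. Lysosomal medians were 0.15 in all nuclei, 0.12 in CA1, 0.074 in CA2/CA3 and 0.088 in inhibitory neurons. Pump medians were 0.0051 in subicular or cortical neurons. With at least 1000 genes per nucleus, higher genes numbered 6 in all nuclei and 7 in oligodendrocytes. Lower genes numbered 5 in microglia and 4 in oligodendrocytes. Lysosomal medians were 0.12 in precursors. Pump medians were -0.27 in microglia. With doublets kept, higher genes numbered 17 in CA2/CA3, 13 in inhibitory neurons, 14 in microglia and 18 in precursors. Lower genes numbered 1 in astrocytes and 1 in microglia. Lysosomal medians were 0.39 in precursors. Ratios on the other side of 1 were 1.002 for Gaa in microglia. In the female mice alone, higher genes numbered 2 in astrocytes, 13 in inhibitory neurons, 5 in oligodendrocytes and 8 in subicular or cortical neurons. Lower genes numbered 1 in CA2/CA3, 0 in astrocytes, 1 in dentate granule neurons, 5 in microglia, 2 in oligodendrocytes, 3 in precursors and 1 in subicular or cortical neurons. Lysosomal medians were -0.091 in oligodendrocytes and 0.088 in subicular or cortical neurons. Ratios on the other side of 1 were 1.042 for Npc1 in astrocytes. At a fold of 1.5, higher genes numbered 0 in all nuclei, 3 in CA1, 1 in CA2/CA3, 4 in astrocytes, 6 in dentate granule neurons, 0 in inhibitory neurons, 0 in microglia, 1 in oligodendrocytes, 3 in precursors and 8 in subicular or cortical neurons. Lower genes numbered 0 in astrocytes and 0 in microglia. In the male mice alone, higher genes numbered 7 in CA1, 1 in astrocytes, 1 in microglia, 4 in oligodendrocytes and 2 in precursors. Lower genes numbered 1 in CA2/CA3, 0 in astrocytes, 1 in oligodendrocytes, 0 in precursors and 1 in subicular or cortical neurons. Lysosomal medians were 0.14 in all nuclei, 0.11 in CA1, 0.031 in inhibitory neurons, -0.042 in microglia and 0.58 in subicular or cortical neurons. Pump medians were 0.63 in precursors. Ratios on the other side of 1 were 0.9138 for Ctsd in microglia, 1.300 for Atp6v0a1 in microglia and 0.9839 for Atp6v1a in oligodendrocytes. With a minimum of 20 UMIs, lower genes numbered 1 in CA2/CA3, 5 in microglia, 1 in oligodendrocytes and 2 in precursors. With no limit on mitochondrial UMIs, higher genes numbered 1 in all nuclei, 20 in astrocytes, 22 in microglia and 16 in precursors. Lower genes numbered 1 in CA2/CA3 and 0 in astrocytes. Lysosomal medians were 0.12 in all nuclei, 0.49 in astrocytes and 0.37 in microglia. Pump medians were 0.28 in microglia. Ratios on the other side of 1 were 1.229 for Ctsz in astrocytes and 1.103 for Npc1 in astrocytes. With nuclei thinned to 750 UMIs, higher genes numbered 7 in CA2/CA3, 6 in astrocytes, 3 in precursors and 13 in subicular or cortical neurons. Lower genes numbered 2 in CA1, 2 in CA2/CA3, 0 in astrocytes, 1 in dentate granule neurons, 3 in inhibitory neurons, 1 in oligodendrocytes, 2 in precursors and 1 in subicular or cortical neurons. Lysosomal medians were 0.090 in inhibitory neurons and 0.046 in precursors. Pump medians were 0.062 in CA2/CA3. With mitochondrial UMIs under 1%, higher genes numbered 20 in all nuclei, 20 in CA1, 1 in astrocytes, 16 in inhibitory neurons, 4 in microglia, 2 in oligodendrocytes and 1 in precursors. Lower genes numbered 1 in CA2/CA3, 0 in astrocytes, 2 in dentate granule neurons, 1 in inhibitory neurons, 1 in microglia and 1 in subicular or cortical neurons. Lysosomal medians were 0.37 in CA1 and 0.31 in inhibitory neurons. Pump medians were 1.91 in astrocytes, where only 1 gene of the set was measured, and 1.05 in oligodendrocytes. Ratios on the other side of 1 were 2.318 for Npc1 in astrocytes, 0.8706 for Ctss in microglia and 0.6313 for Atp6v1a in oligodendrocytes. With the mixed microglial cluster counted, higher genes numbered 25 in microglia. Lower genes numbered 0 in microglia. Lysosomal medians were 0.47 in microglia. Pump medians were 0.34 in microglia. Ratios on the other side of 1 were 1.186 for Gaa in microglia and 1.096 for Atp6ap1 in microglia. In dentate granule cluster 10 alone, higher genes numbered 10 in dentate granule neurons. Lower genes numbered 2 in dentate granule neurons. Lysosomal medians were 0.066 in dentate granule neurons. In dentate granule cluster 11 alone, higher genes numbered 6 in dentate granule neurons. Lower genes numbered 7 in dentate granule neurons. Lysosomal medians were -0.18 in dentate granule neurons. Pump medians were 0.12 in dentate granule neurons.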

Other observations

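Cystatins, which inhibit cysteine cathepsins, were higher by CPM in some classes and lower in others. Cst3, the abundant cystatin C, had 82758 and 91289 UMIs over all nuclei, a ratio of 1.11 (1.099 to 1.12), and in microglia 2893 and 7726 UMIs, a ratio of 1.15 (1.104 to 1.20). Cst7, a cystatin of disease-associated microglia, was at 1.31 (1.00 to 1.74) in microglia, from 72 and 219 UMIs. In astrocytes the cystatin list had a summed ratio of 1.70 (1.62 to 1.78), with 1 of 5 genes measured. In dentate granule neurons it was 1.31 (1.28 to 1.34), but 1.07 (1.04 to 1.11) within cluster 10 and 0.852 (0.804 to 0.903) within cluster 11. Inhibitory neurons were at 0.966 (0.936 to 0.997), with 1 of 3 measured genes past the fold in each direction.

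Of 20 factors of the TFEB family and of nutrient sensing at the lysosome, 19 were measured over all nuclei, and 3 were past the fold, all higher, a smaller share than the 23.9% of all genes. These were Flcn, which releases TFEB family factors to the nucleus when lost, at 1.49 (1.34 to 1.66), and the Ragulator subunits Lamtor5 at 1.39 (1.29 to 1.49) and Lamtor1 at 1.29 (1.19 to 1.38). The transcription factors Tfe3 and Mitf stood at 0.964 and 1.00. Among 13 genes of sorting to the lysosome, Igf2r, the large mannose 6-phosphate receptor, was past the fold at 1.26 (1.18 to 1.35). In dentate granule neurons 43 of 94 measured genes of all the lists were higher and 9 lower, where 31.1% of all genes were higher and 10.5% lower. Within cluster 10 the count was 17 of 79 higher and 3 lower (19.3% and 8.54% of all genes), and within cluster 11 it was 23 of 80 higher and 6 lower (32.8% and 17.8%).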
